A study of Caenorhabditis elegans with 21 samples.

Results

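Early embryos of Caenorhabditis elegans that lack both lin-61 and set-25 were compared with embryos that lack lin-61 alone. The comparison takes the 3 libraries labelled lin-61 set-25, with the alleles set-25(n5021) on chromosome III and lin-61(tm2649) on I, and the 3 libraries labelled lin-61, with lin-61(tm2649) alone. They were chosen by genotype label and are 6 of the 21 libraries of the series. Both groups carry the same lin-61 allele, so the labelled difference between them is set-25. Embryos younger than the bean stage, with roughly 1 to 300 cells per the labels, came from synchronized worms grown at 20 °C. The age given for these worms is 60 to 65 hours after L1, the first larval stage. Total RNA was depleted of ribosomal RNA and sequenced, and reads were counted without strand in fixed windows of 500 bp along the 6 nuclear chromosomes of build ce10. Of 200547 windows, 97353 held enough reads to be tested. Windows are written as chromosome and first base, and levels as CPM, the read count scaled to a fixed library total with TMM factors. Each genotype is 1 strain, so whatever else differs between the strains cannot be told apart from the named mutation.

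Methylation of lysine 9 on histone H3 marks the silent chromatin of repeats and of genes that a tissue does not use. In C. elegans MET-2 places the lower methylation states and SET-25 the trimethyl state, while LIN-61, a protein with MBT domains, binds methylated lysine 9. NRDE-3 is an Argonaute that carries small RNAs into the nucleus of somatic cells. The title of the series places LIN-61 and NRDE-3 in parallel routes that bring the trimethylating enzyme to chromatin.

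The first part of each library title, a number, differs between the groups: it is 1121 for all lin-61 set-25 libraries and 875 for all lin-61 libraries. Neither prefix holds libraries of both groups, so genotype and prefix cannot be told apart in this comparison and no value within a prefix exists. The labels do not say what the prefix stands for. N2, the wild type, has the prefix 875, and nrde-3(tm1116), nrde-3 set-25, nrde-3 met-2 and lin-61 met-2 have 1121. Values of these genotypes are given beside the results for that reason.

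The lin-61 set-25 libraries held 23900832 to 26549549 reads and the lin-61 libraries 59462797 to 66437115 reads. The 100 most abundant windows took 12.03 to 13.78% of the reads in lin-61 set-25 and 27.5 to 33.0% in lin-61. Correlations of log2 CPM between libraries of 1 group ran from 0.939 to 0.975 in lin-61 set-25 and from 0.990 to 0.993 in lin-61. Library c of lin-61 set-25 stood apart, with correlations of 0.939 and 0.969 with its own group. The counts carry no gene names, so the mutated genes could not be read as such. On chromosome III, a search found 3 windows, 13288001 to 13289500, that were low in all 4 double mutants. There lin-61 set-25 held 0.346, 0.448 and 0.527 CPM in libraries a, b and c, against 35.7, 44.1 and 36.8 CPM in lin-61. On chromosome I, 7249001 to 7250500 held 9.97, 12.8 and 10.7 CPM in lin-61 set-25 and 9.66, 9.08 and 9.41 CPM in lin-61, against 95.5 to 105 CPM in N2. Both stretches lie on the chromosomes that the labels give for set-25 and lin-61, and they were picked after their values were seen. The libraries labelled lin-61 met-2 go against their label on I, at 106 ± 12.3 CPM (SD, n = 3), and nrde-3 met-2 shares the low level on III, so the labels with met-2 are in doubt. The labels also speak of 2 biological replicates where the titles number 3, so the 3 libraries of a group may not all be separate cultures. The doubtful libraries enter the main test through the shared estimate of the spread and the filter on low counts. Without both groups, 86670 windows were tested, of which 13913 windows were higher and 13837 lower in lin-61 set-25 than in lin-61.

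Loss of set-25 on top of lin-61 went with about as many windows higher as lower, but at different levels of abundance. In lin-61 set-25, 13084 windows were higher than in lin-61 (13.4% of those tested) and 12970 were lower (13.3%), at a Benjamini-Hochberg adjusted p below 0.05 in edgeR's quasi-likelihood test. By at least 2-fold, 9857 were higher (10.1%) and 8273 lower (8.5%). The windows that rose were quiet, with a median of 1.71 CPM in lin-61 set-25 and 0.535 CPM in lin-61. The windows that fell were more abundant, with a median of 3.92 CPM in lin-61 set-25 and 9.46 CPM in lin-61. In RNA from whole embryos, fewer cells of a type and less RNA per cell cannot be told apart. The median log2 fold change was 1.47 over the higher windows, -1.18 over the lower ones and 0.10 over all windows tested. Library c of lin-61 set-25 and library b of lin-61 weighed on the higher windows, which numbered 6801 and 7718 without them. The lower windows then numbered 10181 and 9426.

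The direction of the calls followed the level of the window. Of 39766 windows with a mean under 1 CPM over the 6 libraries, 15.2% were higher in lin-61 set-25 and 3.71% lower. Between 1 and 10 CPM the shares were 14.4% higher and 16.9% lower, and between 10 and 100 CPM they were 7.998% and 25.36%. Among the 916 windows over 100 CPM, 5.90% were higher and 38.4% lower. The calls in nrde-3 against N2, which also goes across the prefixes, leaned the same way in these classes. There 1314 windows were higher and 798 lower under 1 CPM, and 11 were higher and 284 lower over 100 CPM. Since lin-61 was sequenced more deeply, its libraries were also thinned to the smallest total of lin-61 set-25. Over all levels, the counts were then 10901 higher and 11809 lower, and shares by level were not computed for them.

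**Figure D1:**
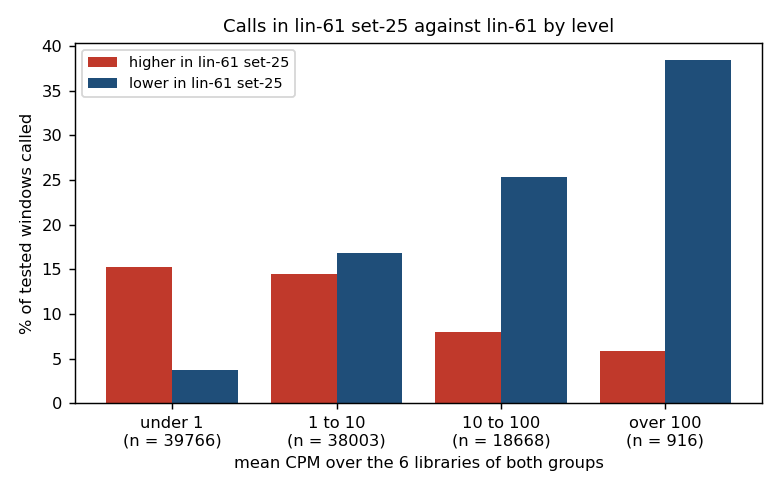
Share of tested windows called higher (red) or lower (blue) in lin-61 set-25 than in lin-61, in % (y axis), by mean CPM over the 6 libraries of both groups (x axis, with the number of windows tested). Higher calls outnumber lower ones under 1 CPM (15.2% and 3.71%), and lower calls outnumber higher ones over 100 CPM (38.4% and 5.90%).

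The other genotypes were on neither side of the comparison that chose these windows, though they entered the shared spread and the filter. They differed in where they stood. Over the 8273 windows lower by at least 2-fold, the library medians were 2.35 to 2.86 CPM in lin-61 set-25 and 7.50 to 8.43 CPM in lin-61. The medians in the other genotypes of prefix 1121 ran from 2.88 to 3.83 CPM, and in N2, of prefix 875, from 6.86 to 7.75 CPM. At these windows each genotype thus stood near the others of its prefix. Over the 9857 windows higher by at least 2-fold, the medians were 0.975, 0.710 and 1.71 CPM in libraries a, b and c of lin-61 set-25 and 0.267 to 0.324 CPM in lin-61. Here nrde-3 set-25 had 0.546 to 0.703 CPM, nrde-3 met-2 0.465 to 0.710 CPM, lin-61 met-2 0.480 to 0.561 CPM, nrde-3 0.276 to 0.355 CPM and N2 0.145 to 0.189 CPM. All 4 double mutants thus stood above lin-61, and lin-61 set-25 library b stood at the level of the highest nrde-3 set-25 and nrde-3 met-2 libraries. The choice of these windows favours low values in lin-61 and high values in lin-61 set-25, so this order is a description only. Window by window, all 3 lin-61 set-25 libraries were set against the 6 libraries of nrde-3 and nrde-3 set-25. They lay above all 6 at 2769 of the 13084 higher windows (21.2%), against 5.66% of all windows tested. They lay below all 6 at 2212 of the 12970 lower windows (17.1%), against 5.56% of all windows tested. Both shares are raised by the calls themselves, which used the same lin-61 set-25 libraries, so their excess is a description only.

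**Figure D2:**
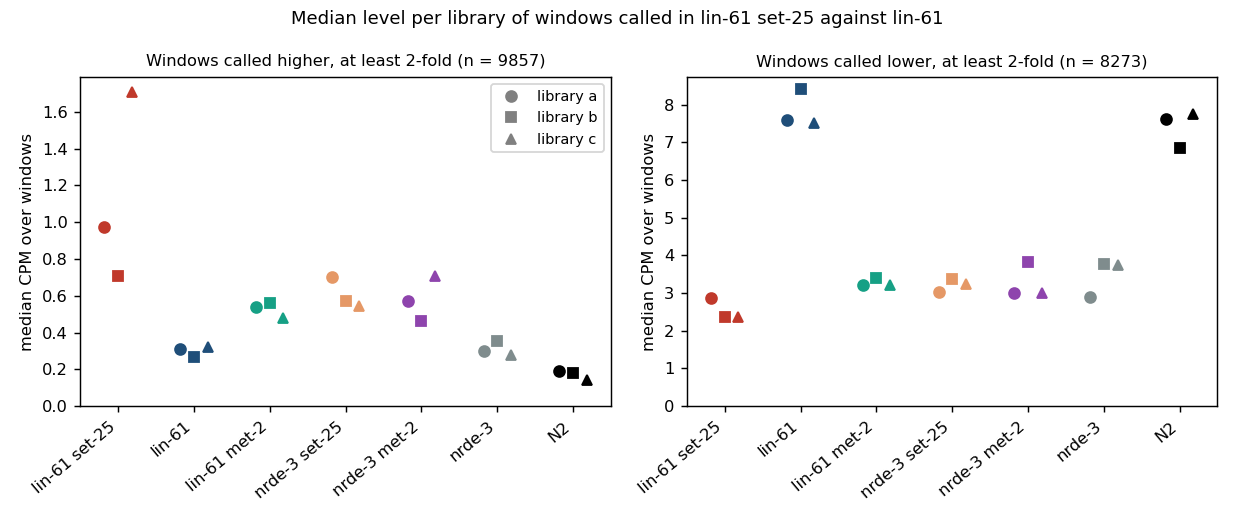
Median CPM per library (y axes, from 0) over windows higher (left) or lower (right) by at least 2-fold in lin-61 set-25 than in lin-61, with 1 marker per library and genotypes along the x axes. At the lower windows the genotypes of prefix 1121 lie between 2.35 and 3.83 CPM and lin-61 and N2 between 6.86 and 8.43 CPM. At the higher windows lin-61 set-25 library c lies at 1.71 CPM.

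The 3 lin-61 set-25 libraries moved in 1 order at many of the windows that rose. Library c was highest at 67.4% of the 13084 higher windows and library b lowest at 56.0%, against 41.1% and 38.3% of all windows tested. Among the 2160 higher windows with at least a 2-fold change and a mean of at least 2 CPM, the order c, a, b held at 71.5%, against 28.7% of all windows tested. The share of this order was 15.1% at the lower windows. In quiet windows, where the 6 libraries of prefix 875 summed to no more than 2 reads, the lin-61 set-25 libraries held 0.00989 to 0.0246 CPM per window and the lin-61 libraries 0.00238 to 0.00246 CPM. That choice of windows fixes the low value in lin-61. The other genotypes of prefix 1121 had no part in that choice. They held 0.00489 to 0.00583 CPM in nrde-3 and 0.00794 to 0.0164 CPM in nrde-3 set-25. In lin-61 met-2 and nrde-3 met-2 the values were 0.00697 to 0.0467 and 0.0985 to 0.297 CPM. With each library's own mean over these windows subtracted, 11662 windows were higher and 11975 lower.

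A second pair of genotypes, nrde-3 against N2, also goes across the prefixes, from 1121 to 875, and shares no library with this comparison. Of its 8027 lower windows (8.25% of those tested), 6464 were also lower in lin-61 set-25 than in lin-61, which is 80.5% of that list and 49.8% of the windows lower here. Of its 3838 higher windows (3.94%), 1960 were also higher here, which is 51.1% of that list and 14.98% of the windows higher here. Across the 45327 windows with a mean of at least 2 CPM, the log2 fold changes of both comparisons had a Pearson correlation of 0.755. These windows share libraries and neighbours, so this describes them and is not a test.

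The difference between both changes was tested as (lin-61 set-25 minus lin-61) minus (nrde-3 minus N2), in which an effect of the prefix that adds on the log2 scale cancels. What is left is loss of set-25 in lin-61 set against loss of nrde-3 in the wild type. In this prefix-matched difference 192 windows were higher (0.197% of those tested) and 88 lower (0.0904%). Of these, 140 were also called higher and 44 lower in lin-61 set-25 against lin-61. Over the 140, the median log2 fold change was 3.36 in lin-61 set-25 against lin-61 and -0.71 in nrde-3 against N2. Choosing windows called higher in both ways favours a high value in the former and a low value in the latter. These medians are therefore a description only. A difference of differences has a larger error, with a median SE of 0.472 on the log2 scale against 0.330 for the plain comparison. At an unadjusted p below 0.05, 4858 windows were higher and 4404 lower in it. The higher windows numbered 105 with only the 4 genotypes fitted, 595 without lin-61 set-25 library b, 126 without lin-61 library c, 98 and 127 without nrde-3 library b or c, and 125 and 114 without N2 library b or c. The lower windows numbered 28 with only these genotypes, and 33, 38 and 32 without lin-61 library a, b or c. They numbered 134, 34 and 55 without nrde-3 library a, b or c, and 39, 34 and 27 without N2 library a, b or c. DESeq2 called 634 higher and 251 lower. In an additive model over all 21 libraries, with a term for each of the 4 mutations and one for the prefix, the set-25 term called 3833 windows higher and 274 lower. It leans on effects that add and on the doubtful labels.

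**Figure D3:**
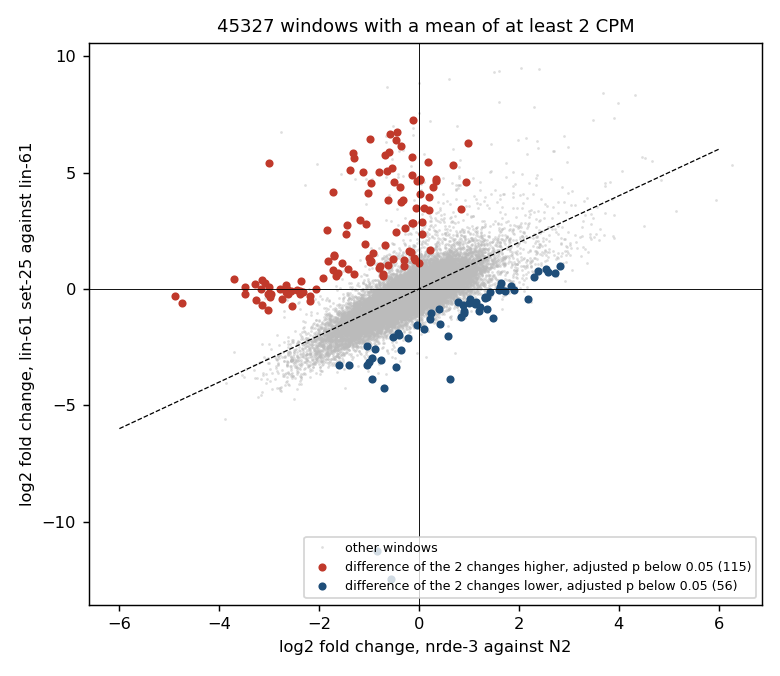
Log2 fold change in lin-61 set-25 against lin-61 (y axis) and in nrde-3 against N2 (x axis) for the 45327 windows with a mean of at least 2 CPM over the lin-61 set-25 and lin-61 libraries. Windows called in the difference of both changes are red (higher, 115) or blue (lower, 56), other windows are grey, and the dashed line marks equal changes. Both changes went together over all points (Pearson correlation 0.755), which does not measure how near the points lie to the line.

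The largest rises were at windows with few or no reads in lin-61. V 12404001 held 14.2, 4.71 and 45.9 CPM in libraries a, b and c of lin-61 set-25, against 0.0392, 0 and 0.072 CPM in lin-61. Every lin-61 set-25 library was above every lin-61 library, a log2 fold change of 9.003 ± 0.749 (SE, edgeR adjusted p = 1.25e-08). The level there was 3.04 ± 0.942 CPM in nrde-3 set-25, 0.0132 ± 0.0228 CPM in nrde-3 and 0.00805 ± 0.0139 CPM in N2 (SD, n = 3 each). II 8358501 held 9.34, 4.48 and 35.9 CPM in lin-61 set-25, against 0, 0.0205 and 0.072 CPM in lin-61. The log2 fold change was 8.86 ± 0.83 (edgeR adjusted p = 2.23e-07). It had no read in any library of nrde-3 or N2 and 2.04 ± 1.19 CPM in nrde-3 set-25. IV 11225501 held 16.6, 7.55 and 44.8 CPM in lin-61 set-25 and 0.176, 0.041 and 0.198 CPM in lin-61, a log2 fold change of 7.32 ± 0.61. I 11490001 held 3.56, 1.195 and 9.71 CPM in lin-61 set-25 and 0.0196, 0.0205 and 0.036 CPM in lin-61, a log2 fold change of 7.36 ± 0.71. These 4 windows were lowest in library b and highest in library c, and none of them overlapped with lin-61. At IV 11225501 and I 11490001, nrde-3 set-25 stood at 3.03 ± 1.22 and 1.01 ± 0.466 CPM and nrde-3 at 0.0393 ± 0.00378 and 0.0537 ± 0.0281 CPM. None of the 4 windows was called in the prefix-matched difference, in which nrde-3 and N2 held 0 to 6 reads per genotype.

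Other windows with large rises rested on 1 library. III 3336501 held 20.98, 0.411 and 0.263 CPM in libraries a, b and c of lin-61 set-25, with 686 reads in the group against 1 read in lin-61, a ratio of 1199 (exact binomial 95% interval 214 to 47410). III 1301501 held 11.99, 0.187 and 0.0987 CPM, with 389 reads against 1 in lin-61, a ratio of 680 (121 to 26910). V 16707501 held 15.04, 0.299 and 0.395 CPM, with 498 reads against 2 in lin-61, a ratio of 435 (120 to 3603). II 13985001 held 28.3, 0.299 and 1.84 CPM in lin-61 set-25, against 0, 0.041 and 0.036 CPM in lin-61. Library a was far above its group mates at these 4 windows, and without it their calls were lost, at edgeR adjusted p of 0.178, 0.499, 0.309 and 0.0546. The intervals compare pooled reads and cover counting error only. In all, library a held over 80% of the summed level of its group at 74 of the 13084 higher windows, library c at 35 and library b at 2. Over all 97353 windows tested, library a did so at 303, library c at 303 and library b at 101. At all 74 higher windows of library a, the mean of nrde-3 met-2 exceeded that of lin-61 set-25. The median of these means was 1.05 CPM in lin-61 set-25, 0.0135 CPM in lin-61, 22.8 CPM in nrde-3 met-2 and 0.0697 CPM in N2. In lin-61 met-2 the mean exceeded that of lin-61 set-25 at 62 of the 74, with a median of 3.86 CPM. How often the means of these genotypes exceeded that of lin-61 set-25 over all windows tested was not computed. Why library a shares these windows with the libraries labelled met-2 was not tested.

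A group of windows rose beyond what nrde-3 showed against N2. On X, 3 such windows lay close together. X 6323501 held 11.2, 7.73 and 36.2 CPM in lin-61 set-25, against 0.0979, 0.082 and 0.162 CPM in lin-61, a log2 fold change of 7.27 ± 0.57 (edgeR adjusted p = 7.61e-09). Its prefix-matched difference was 7.40 ± 1.31 (adjusted p = 0.00854), and nrde-3 set-25 held 1.75 ± 0.369 CPM there, with 0.0645 ± 0.0829 CPM in nrde-3. X 6326501 held 10.5, 5.64 and 27.8 CPM in lin-61 set-25 and 0.0979, 0.0615 and 0.234 CPM in lin-61. X 6329001 held 5.72, 3.88 and 15.1 CPM in lin-61 set-25 and 0.0588, 0.102 and 0.072 CPM in lin-61. Their log2 fold changes were 6.74 and 6.67, and their prefix-matched differences 7.18 and 7.25 at adjusted p of 0.00719 and 0.000494. Over the stretch X 6323501 to 6332500, 9 of 18 windows were called higher and 5 of them also in the prefix-matched difference. The summed level there was 46.9, 28.7 and 129 CPM in lin-61 set-25, against 0.862, 0.451 and 0.972 CPM in lin-61. In the other genotypes it was 7.74 ± 2.68 CPM in nrde-3 set-25, 0.424 ± 0.345 CPM in nrde-3 and 0.581 ± 0.271 CPM in N2.

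III 18501, close to the left end of the chromosome, held 4.28, 2.02 and 16.3 CPM in lin-61 set-25, against 0.137, 0.0205 and 0.090 CPM in lin-61, a log2 fold change of 6.43 ± 0.69. IV 7990001 held 4.09, 2.28 and 17.4 CPM in lin-61 set-25 and 0.0588, 0.123 and 0.090 CPM in lin-61, a log2 fold change of 6.40 ± 0.63. III 4188501 held 12.7, 6.16 and 38.1 CPM in lin-61 set-25 and 0.353, 0.205 and 0.180 CPM in lin-61, a log2 fold change of 6.25 ± 0.61. All lin-61 set-25 libraries lay above all lin-61 libraries at these windows, and c was again the highest. Their prefix-matched differences were 7.41, 6.86 and 5.28 at adjusted p of 0.0284, 0.00764 and 0.00822, where nrde-3 held 3, 6 and 39 reads. With only the 4 genotypes of that difference fitted, the calls at X 6323501, X 6326501, III 18501 and IV 7990001 were lost, at adjusted p of 0.0922, 0.0759, 0.139 and 0.0738. The call was also lost at X 6323501 without N2 library a (0.269) and at X 6326501 without N2 library c (0.0906). At III 18501 it was lost without nrde-3 library b (0.0742) or N2 library b or c (0.068 and 0.224). The call at III 18501 was also lost without the libraries labelled lin-61 met-2 and nrde-3 met-2 (0.0863). The 140 windows called higher in both ways formed 86 groups when joined across at most 5 kb, of which 33 held more than 1 window. One of these, I 8445501 to 8451000, had all of its 11 windows called higher against lin-61 and 5 of them in both ways. It held 57.4, 21.3 and 182 CPM in lin-61 set-25 and 2.605, 1.271 and 1.997 CPM in lin-61, with 14.3 ± 4.35 CPM in nrde-3 set-25, 0.579 ± 0.135 CPM in nrde-3 and 1.10 ± 0.121 CPM in N2.

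**Figure D4:**
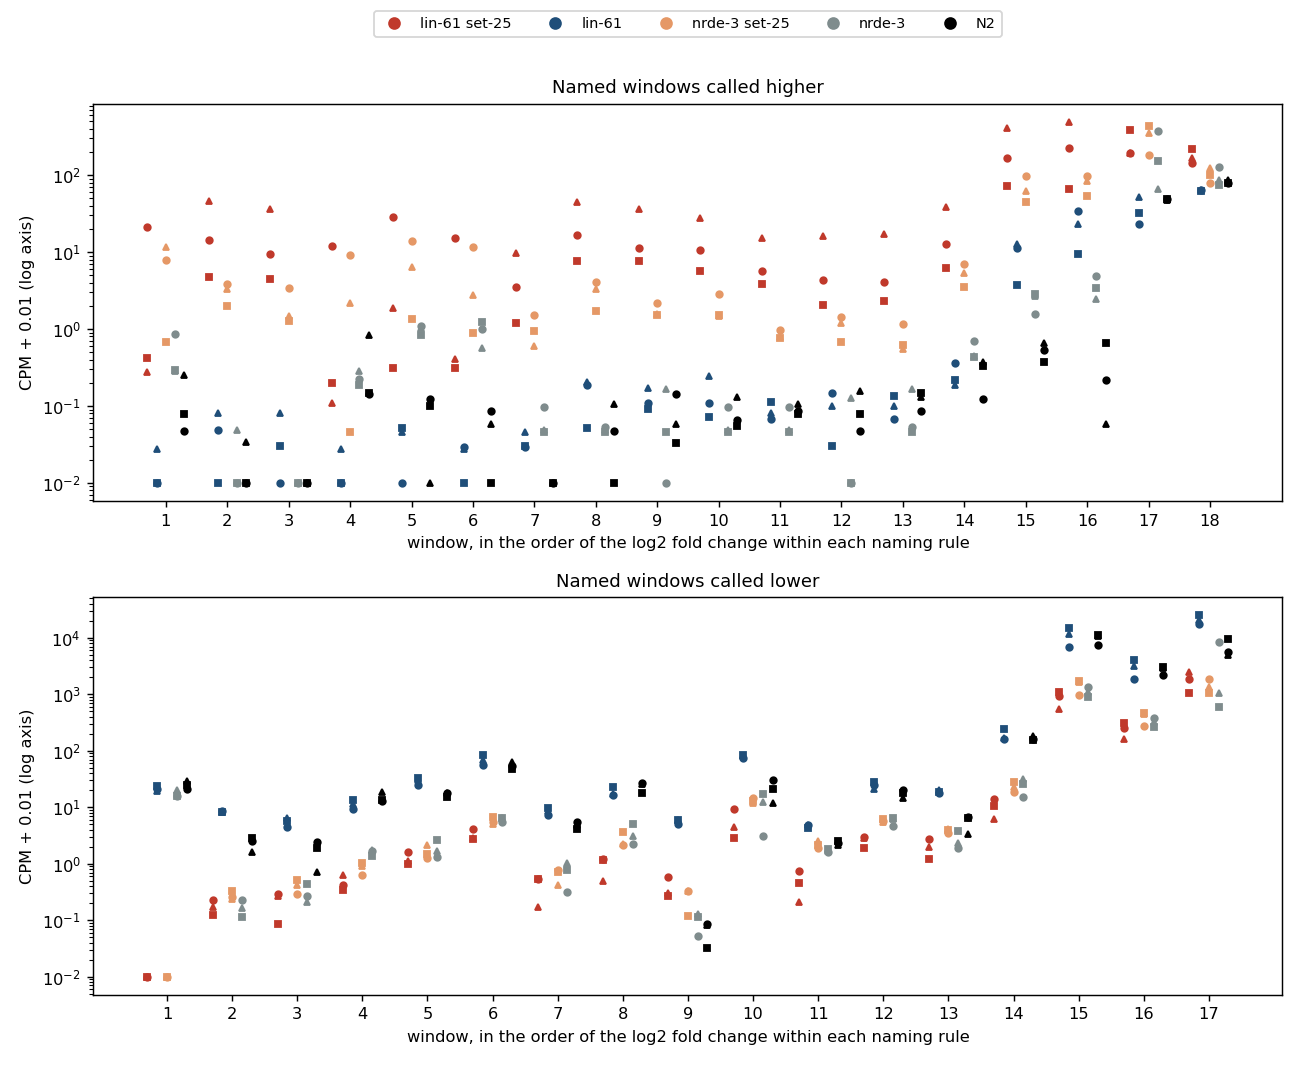
Level of each named window in CPM plus 0.01 (log axes) in the libraries of lin-61 set-25, lin-61, nrde-3 set-25, nrde-3 and N2, with circles for library a, squares for b and triangles for c. Above are the 18 windows called higher and below the 17 called lower, each ordered as largest change, change beyond nrde-3 against N2 and abundant windows. Among the higher ones, V 12404001 reaches 45.9 CPM in library c, and among the lower ones the nrde-3 and nrde-3 set-25 points mostly lie near lin-61 set-25.

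Few abundant windows rose. Of 916 windows with a mean of at least 100 CPM, 53 were called higher without overlap of the libraries (5.79%) and 350 lower (38.2%). Over all windows tested, 11.3% were called higher and 13.2% lower without overlap, and called or not, 20.6% lay higher and 21.5% lower without overlap. II 5831001 held 167.7, 71.2 and 404.5 CPM in lin-61 set-25, against 11.3, 3.67 and 12.9 CPM in lin-61, a log2 fold change of 4.53 ± 0.53 (edgeR adjusted p = 1.04e-06). It stood at 68.1 ± 27.4 CPM in nrde-3 set-25, 2.36 ± 0.704 CPM in nrde-3 and 0.515 ± 0.144 CPM in N2. V 4647501 held 223.5, 65.3 and 494.5 CPM in lin-61 set-25, against 34.6, 9.51 and 23.4 CPM in lin-61, a log2 fold change of 3.54 ± 0.57 (edgeR adjusted p = 6.5e-05). It stood at 78.1 ± 22.9 CPM in nrde-3 set-25, 3.58 ± 1.21 CPM in nrde-3 and 0.298 ± 0.306 CPM in N2. By mean, both windows were lowest in N2 and highest in lin-61 set-25, with nrde-3 set-25 next below it. Their prefix-matched differences were 2.34 and -0.03, at adjusted p of 0.262 and 0.997.

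The 2 other abundant windows that rose behaved otherwise. IV 11406001 held 194, 383 and 195 CPM in lin-61 set-25 and 23.4, 31.8 and 51.9 CPM in lin-61, a log2 fold change of 2.85 ± 0.66, but nrde-3 also stood at 198 ± 161 CPM and N2 at 48.0 ± 0.677 CPM. V 11490001 held 142, 220 and 167 CPM in lin-61 set-25 and 64.9, 61.7 and 63.4 CPM in lin-61, a log2 fold change of 1.48 ± 0.21. The other genotypes lay between 81.3 and 106 CPM on average at V 11490001. Library b was the highest lin-61 set-25 library at both of these windows.

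Among the windows that fell, III 13288001 had no read in the 3 lin-61 set-25 libraries and 20.8, 23.4 and 19.5 CPM in lin-61. Set against a floor of 3 reads over the group, the level was at least 627-fold lower in lin-61 set-25 (edgeR adjusted p = 7.73e-11). It lies in the stretch on III described above and also had no read in nrde-3 set-25. Absent RNA and absent sequence cannot be told apart there. Its prefix-matched difference was called as well (adjusted p = 1.2e-08). The stretch III 13288001 to 13293000 had 7 of its 10 windows called lower in both ways, at 17.4, 19.6 and 13.8 CPM in lin-61 set-25 and 91.9, 112 and 95.9 CPM in lin-61. Of the 17 windows named for a fall, this was the only one with no read in lin-61 set-25.

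The next largest falls were shared by the other genotypes of prefix 1121. II 1233501 held 0.220, 0.112 and 0.165 CPM in lin-61 set-25, against 8.60, 8.10 and 8.31 CPM in lin-61, a log2 fold change of -5.60 ± 0.34 (edgeR adjusted p = 1.82e-10). It stood at 0.160 ± 0.0544 CPM in nrde-3 and 2.35 ± 0.663 CPM in N2. I 10227501 held 4.18, 2.73 and 2.80 CPM in lin-61 set-25, against 55.4, 85.5 and 67.5 CPM in lin-61, a log2 fold change of -4.42 ± 0.27. It stood at 6.14 ± 0.588 CPM in nrde-3 and 54.5 ± 8.22 CPM in N2, near the group of its own prefix in each case. V 14112001 held 1.64, 0.971 and 1.12 CPM in lin-61 set-25, against 24.5, 33.7 and 30.4 CPM in lin-61, with 1.86 ± 0.689 CPM in nrde-3 and 16.9 ± 1.59 CPM in N2. I 13045001, III 5020501, II 12194501 and II 12992501 had log2 fold changes of -4.71, -4.63, -4.375 and -4.32. The prefix-matched differences of these 7 windows were all below 0, from -2.21 to -1.27, a sign that their choice by a large fall favours. None was called, at edgeR adjusted p of 0.122 to 0.367, which does not show that the changes were equal. In the additive model, 2 of the 17 named lower windows were still called in the set-25 term, III 13288001 and III 5020501, and 6 changed sign. Of the 18 named higher windows, 12 were still called and 0 changed sign.

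A smaller group of windows fell beyond what nrde-3 showed against N2. V 18713501 held 0.724, 0.448 and 0.198 CPM in lin-61 set-25, against 4.86, 4.31 and 4.86 CPM in lin-61, a log2 fold change of -3.34 ± 0.36 (edgeR adjusted p = 3.83e-07). The other genotypes averaged 1.70 to 2.34 CPM there, so lin-61 set-25 lay below and lin-61 above them all. IV 6122001 held 2.99, 1.91 and 2.80 CPM in lin-61 set-25 and 25.1, 28.3 and 21.4 CPM in lin-61, with 5.78 ± 0.996 CPM in nrde-3 and 17.6 ± 2.61 CPM in N2. Their prefix-matched differences were -2.88 and -1.67, at adjusted p of 0.00517 and 0.00705. V 8830001 held 0.566, 0.262 and 0.296 CPM in lin-61 set-25 and 5.09, 5.95 and 5.83 CPM in lin-61. That window was high in lin-61 alone, with 0.0893 ± 0.0405 CPM in nrde-3 and 0.0569 ± 0.0295 CPM in N2. Its prefix-matched difference was -4.50 at an adjusted p of 0.0216. X 5827001 held 9.22, 2.80 and 4.51 CPM in lin-61 set-25 and 76.0, 83.7 and 81.8 CPM in lin-61, and X 2218001 held 2.74, 1.195 and 1.94 CPM in lin-61 set-25 and 17.7, 18.9 and 20.6 CPM in lin-61. The other genotypes averaged 10.9 to 20.9 CPM at X 5827001 and 2.67 to 5.51 CPM at X 2218001. By mean, both windows were thus highest in lin-61, with N2 next below it, and lowest in lin-61 set-25. Their log2 fold changes were -3.86 and -3.27. Their prefix-matched differences had edgeR adjusted p of 0.035 and 0.0489. Both calls were lost without any 1 of the lin-61 libraries and without lin-61 set-25 library c. They were also lost without nrde-3 library b or c or N2 library b or c. With only the 4 genotypes of that difference fitted, adjusted p was 0.146 and 0.0792. X 5827001 also lost its call without the libraries labelled lin-61 met-2 and nrde-3 met-2 (0.0686). X 2218001 also lost its call with RLE scaling (0.0583) and background subtraction (0.0704). The same held there without lin-61 set-25 library b (0.058) or N2 library a (0.0622). The call at V 8830001 was lost without nrde-3 library b or c or N2 library b, and that at IV 6122001 without N2 library c, at an adjusted p of 0.0503.

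Abundant windows that fell were mostly at the level of their prefix. IV 11324501 held 916, 1099 and 544 CPM in lin-61 set-25, against 6817, 14790 and 11650 CPM in lin-61, a log2 fold change of -3.70 ± 0.34 (edgeR adjusted p = 4.43e-08). It stood at 1115 ± 243 CPM in nrde-3 and 9785 ± 1972 CPM in N2. IV 11400501 held 251, 312 and 160 CPM in lin-61 set-25 and 1903, 4047 and 3164 CPM in lin-61, with 323 ± 60.6 CPM in nrde-3 and 2723 ± 456 CPM in N2. III 4276501 held 14.2, 10.5 and 6.09 CPM in lin-61 set-25 and 160, 247 and 171 CPM in lin-61, with 24.6 ± 8.72 CPM in nrde-3 and 167 ± 15.5 CPM in N2. At all 3 windows the 2 groups compared did not overlap, and nrde-3 lay nearer to lin-61 set-25 and N2 nearer to lin-61. I 15066501, near the right end of I, held 1832, 1070 and 2526 CPM in lin-61 set-25 and 17670, 24950 and 20550 CPM in lin-61. Its level varied between libraries elsewhere, at 3322 ± 4346 CPM in nrde-3 and 6767 ± 2584 CPM in N2.

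Most called regions were single windows. Joined across gaps of at most 1 window, the higher windows formed 7230 regions, of which 65.1% were single windows and 426 held at least 5 called windows. The lower windows formed 6509 regions, of which 55.9% were single windows and 496 held at least 5. The longest regions were 23 kb for higher and 11.5 kb for lower windows.

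The longest regions that rose hold mostly called windows by construction, since called windows were joined across gaps of at most 1 window. IV 11973001 to 11994500 spanned 21.5 kb, with 42 of its 43 windows called higher and a median log2 fold change of 2.77 over them. Its summed level was 195.5, 90.5 and 465 CPM in libraries a, b and c of lin-61 set-25, against 38.5, 29.7 and 47.7 CPM in lin-61. The groups did not overlap in 39 of the 43 windows. The region stood at 40.1 ± 15.3 CPM in nrde-3 set-25, 14.8 ± 8.38 CPM in nrde-3 and 13.5 ± 2.17 CPM in N2. III 6769501 to 6792500 held 335, 154 and 761 CPM in lin-61 set-25 and 131, 116.5 and 173 CPM in lin-61, with 41 of 46 windows called. V 6139501 to 6161500 held 185, 82.8 and 387 CPM in lin-61 set-25 and 53.4, 36.7 and 70.0 CPM in lin-61, with 41 of 44 windows called. I 14880501 to 14893500 held 165.7, 94.7 and 280 CPM in lin-61 set-25 and 53.3, 86.8 and 87.1 CPM in lin-61, and 4 of its 25 called windows were also called in the prefix-matched difference. In all 4 regions library c was the highest and library b the lowest of lin-61 set-25.

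**Figure D5:**
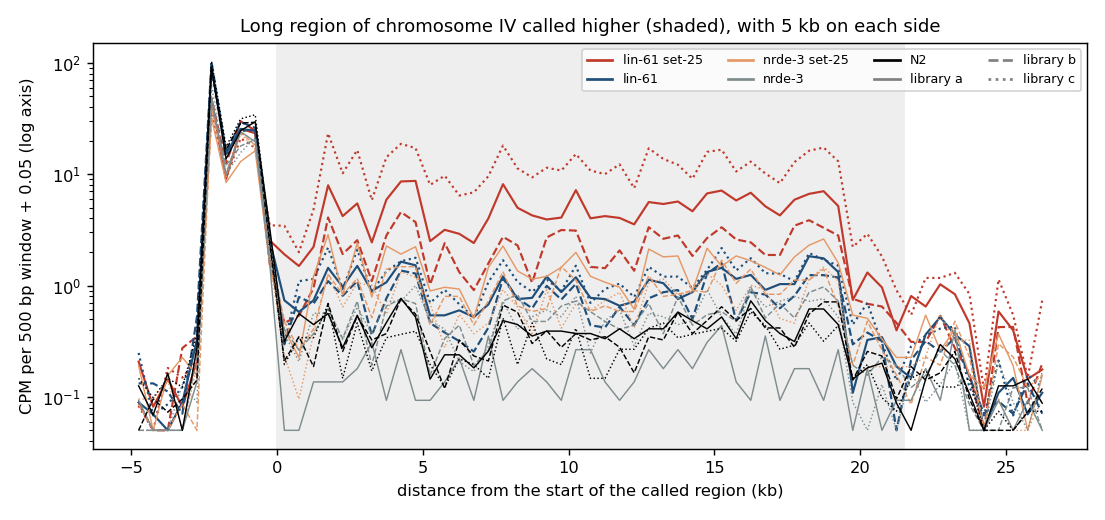
Level per 500 bp window in CPM plus 0.05 (log axis) along the 21.5 kb region of chromosome IV called higher (shaded) and 5 kb on each side, by distance from the region's start in kb, with 1 line per library. The lin-61 set-25 lines (red) run apart inside the region, with library c highest and b lowest, and sums of 195.5, 90.5 and 465 CPM in a, b and c against 29.7 to 47.7 CPM in lin-61 (blue). Left of it, at -2.5 kb, an abundant window lies lower in lin-61 set-25 (34.4 to 48.0 CPM) than in lin-61 (83.5 to 102.5 CPM).

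The long regions that fell had a narrower spread. X 16961501 to 16973000 held 126.5, 89.5 and 83.3 CPM in lin-61 set-25 and 285, 361 and 334 CPM in lin-61, with 120 ± 34.8 CPM in nrde-3 and 255 ± 5.92 CPM in N2. V 4300501 to 4311000, III 11461001 to 11471000 and X 10773001 to 10783000 averaged 68.4, 80.9 and 171 CPM in lin-61 set-25 and 167, 258.5 and 404.5 CPM in lin-61. In nrde-3 they averaged 90.5, 101 and 210.5 CPM, and in N2 142, 220 and 311.5 CPM. All 4 regions were thus low in nrde-3 as well as in lin-61 set-25.

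With each chromosome split into 3 equal parts, the middle parts held 43.1% of the higher windows, 34.1% of the lower windows and 36.8% of the windows tested. In nrde-3 against N2 they held 1774 of the 3838 higher and 2479 of the 8027 lower windows. Chromosome V held 19% of the higher, 14.02% of the lower and 15.9% of the tested windows, and III held 14.2% of the higher, 18.3% of the lower and 17.03% of the tested windows. Among the 18 parts, the middle of V had the largest share of its windows called higher, 18.7%, and the left part of III the smallest, 9.65%. X held 16.5% of the higher, 17.5% of the lower and 15.8% of the tested windows. These shares are descriptions, since neighbouring windows are not independent.

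Loss of set-25 was also sequenced in the nrde-3 background, where both genotypes have the prefix 1121. In nrde-3 set-25 against nrde-3, 2392 windows were higher (2.46% of those tested) and 226 lower (0.232%). Of the 2392, 1311 were also higher in lin-61 set-25 than in lin-61, which is 54.8% of that list and 10.02% of the windows higher here. At these 1311 windows the median log2 fold change was 2.09 in lin-61 set-25 against lin-61 and 2.60 in nrde-3 set-25 against nrde-3. Their median levels were 3.52 CPM in lin-61 set-25, 0.671 CPM in lin-61, 1.38 CPM in nrde-3 set-25, 0.212 CPM in nrde-3 and 0.106 CPM in N2. Of the 226 lower windows in nrde-3 set-25, 68 were also lower in lin-61 set-25, which is 30.1% of that list and 0.524% of the windows lower here. Another 94 of the windows lower here were higher in nrde-3 set-25 than in nrde-3, and 8 of the windows higher here were lower in it. The test of the difference between both losses of set-25, (lin-61 set-25 minus lin-61) minus (nrde-3 set-25 minus nrde-3), called 2723 windows higher (2.8% of those tested) and 5908 lower (6.07%). Only the first of these losses goes across the prefixes, so this difference holds any effect of the prefix. Of the 1311 windows higher in both backgrounds, 4 were called higher and 4 lower in it. Choosing windows called higher in both makes a called difference rare, so these counts do not show that the changes were equal. The higher windows in this difference numbered 1378 without lin-61 set-25 library b, 1452, 1342 and 1088 without lin-61 library a, b or c, 1345, 1180 and 1410 without nrde-3 set-25 library a, b or c, 1631 without nrde-3 library c, and 4521 without the labels with met-2.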

How the data were processed

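Total RNA of early embryos was counted by the authors as reads per 500 bp window, and the deposited values are raw counts with no strand and no gene names. The build is ce10, per the submitters' processing notes; the aligner and counter are not given in the sources used here. A further 6 columns of counts matched no sample and were not used. No ce10 annotation or genome was used, so windows carry no gene names, gene lists or marker lists were not applied, and no sequence is shown.

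Windows were filtered with filterByExpr (minimum count 10), scaled with TMM and tested with edgeR 4.0.16 (R 4.3.3), quasi-likelihood F test, over all 21 libraries with 1 coefficient per genotype, 14 residual degrees of freedom and Benjamini-Hochberg adjustment over 97353 windows. A standard error is the log2 fold change over the square root of F. Differences of changes were contrasts in the same fit. In CPM, a floor of 3 reads over the group was 0.0337 in lin-61 set-25 and 0.0193 in lin-61.

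Named windows had a mean of at least 2 CPM and no overlap, 1 per called region: the 8 largest changes each way, the 6 largest also called in the prefix-matched difference, and the 4 largest with a mean of at least 100 CPM. The 4 longest regions each way were added. The members, rules and tests were chosen with earlier results of these data known. On simulated counts the test of lin-61 set-25 against lin-61 found 92 of 100 windows given a log2 change of 2 and 40 of 100 given 1, with 5 false calls among 137 (90785 windows). The changed windows were drawn only from those above a minimum mean count, and no prefix effect was simulated. These rates therefore do not cover quieter windows or data in which many windows change. Alternatives were RLE scaling, no filter, only the groups compared, DESeq2 1.42.0, thinning, background subtraction, a prefix term, leaving out doubtful labels and leaving out each lin-61 set-25 and lin-61 library. Leaving out each nrde-3 set-25, nrde-3 and N2 library in the differences was added after seeing the data.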

Additional observations from a re-analysis of the deposited data

Results flagged for a closer look

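Loss of set-25 changed RNA differently in the lin-61 and nrde-3 backgrounds, by the test of the difference itself, at 2723 windows in the higher and 5908 in the lower direction (edgeR, adjusted p below 0.05). Only the change in the lin-61 background goes across the library prefixes, so background and prefix cannot be told apart here. Of the named windows, III 4188501 and V 11490001 had differences of 2.89 and 1.38 on the log2 scale. The call at III 4188501 was lost without lin-61 set-25 library c, lin-61 library b or c, nrde-3 set-25 library b or c, or nrde-3 library a or c.

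Of the 17 named windows that fell, all had a difference below 0, and 15 of these differences were called. These windows were named for their fall in lin-61 set-25 against lin-61, which is a term of the difference. That choice favours values below 0, so they are a description only. It was -6.35 at II 1233501, -5.11 at I 13045001, -3.74 at III 5020501, -4.33 at V 14112001 and -4.32 at I 10227501. It was -4.23 at II 12194501, -3.94 at II 12992501, -5.26 at V 8830001, -4.12 at X 5827001 and -3.69 at V 18713501. It was -3.28 at IV 6122001, -3.79 at X 2218001, -4.14 at III 4276501, -4.09 at IV 11324501 and -3.96 at IV 11400501.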

How the results depend on the processing

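The counts for lin-61 set-25 against lin-61 stayed within 1.5 times under RLE scaling, no filter, only the 6 libraries, DESeq2, thinning, background subtraction and leaving out the doubtful labels, at 10652 to 15535 higher and 11809 to 13937 lower. With a prefix term they were 3833 and 274. Leaving out 1 library gave 6801 to 13999 higher and 9426 to 12435 lower. In the difference of both losses of set-25, the higher windows numbered 1270 with no filter, 4813 with DESeq2 and 4521 without the doubtful labels, and 1088 to 2670 without 1 library. In the difference from nrde-3 against N2, 469 were higher and 202 lower with no filter, 105 and 28 with only the groups compared, 634 and 251 with DESeq2, and 98 to 595 and 27 to 134 without 1 library. With a prefix term the log2 change turned to 0.466 at II 1233501, 0.302 at I 13045001, 1.79 at V 8830001, 0.29 at X 2218001, 0.043 at IV 11324501 and 0.009 at IV 11400501. The share of higher windows under 1 CPM was 45.2% with RLE scaling and 59.8% for at least 2-fold changes, against 46.2%. For at least 2-fold changes, 20.4% of higher windows lay on V, 31.5% of lower windows were at 10 to 100 CPM and 31.3% of lower windows lay in the middle parts of chromosomes. Where not shown by the construction of an alternative, the cause was not tested. RLE scaling moved the median log2 change of all windows to 0.16, from 0.10 with TMM. No paired analysis was possible because the columns carry letters and no replicate numbers. Prefix and genotype cannot be told apart in the main comparison, and reads per library limit the quiet windows.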
